A study of Daphnia magna with 48 samples.

Results

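The 30 transcripts that drew the most reads in whole-body RNA of adult female Daphnia magna were followed across 4 clones and 4 oxygen treatments. Reads were summed over the 48 samples for each of the 6050 transcripts counted, and the 30 highest were taken after leaving out 3 transcripts named in the rule (11F0.55, 3F39.53 and 35F4.44), of which only 3F39.53 (52470 reads) would have entered. A transcript is called here by its contig and gene number in the reference annotation, so that 292F0.4 is gene 0.4 of contig 292F. The members were thus chosen by their total reads in these same samples, and their levels are given as a description, with no test.

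The study asked how rearing in mild, recurring hypoxia alters the response of these water fleas to a severe acute hypoxia. Clones FI (FI-FSP1-16-2) and IL (IL-M1-8) came from intermittent habitats, and clones GB (GB-EL75-69) and HU (HU-K-6) from permanent habitats. Females were reared in normoxia (8 mg O2/L) or in chronic mild intermittent hypoxia (CMIH), in which oxygen was lowered to 4 mg/L on 2 occasions a day, and at 25 days of age were either kept without acute exposure (controls) or exposed to acute severe hypoxia (ASH, 12 h at or below 1 mg O2/L). Each of the 16 groups held 3 pools of 2 females. All animals of a clone are asexual copies of 1 genotype, CMIH was applied to whole tanks, and each clone had its own library preparations and sequencing runs, so that a difference between clones and a difference between runs cannot be told apart. For that reason clones are compared as a description, with no test.

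RNA was copied into cDNA, amplified and read on an Oxford Nanopore MinION, which counts 1 read per sequenced cDNA molecule whatever its length. A share is the percentage of a sample's reads that fell on a transcript, while RPKM, the other deposited scale, divides the reads by the length of the reference sequence. Where a read stands for a whole molecule, that division lowers long transcripts and raises short ones, so orders between transcripts are given on both scales. As background, a whole adult Daphnia combines gut, epidermis under the moulted carapace, muscle, fat cells, ovary and often a brood pouch with embryos, and whole-body libraries of crustaceans are commonly rich in transcripts of ribosomal proteins, digestive enzymes, muscle and cuticle proteins and yolk precursors. In severe hypoxia, Daphnia is known to raise hemoglobin under control of the hypoxia-inducible factor and to turn to anaerobic glycolysis. The identifiers carry no gene names and 0 of the 6050 could be matched to the RefSeq gene table, so no function is given to any of the 30, no marker or pathway list was used, and no check of the tissue by markers was possible. In whole-body RNA, fewer cells of a kind and less RNA per cell cannot be told apart.

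The 30 members lay on 23 contigs and were between 363 and 9147 bases long, with a median of 1760.5 against 2313.5 over all transcripts. Under 1000 bases were 9 members (30% against 20.3% of all transcripts), and 23 were models of the MAKER pipeline (76.7% against 75.1%). Their totals ran from 212933 reads for 292F0.4 to 26906 for 1F57.21, while the median transcript had 377.5. Just inside the limit were 20F14.40 (27542 reads), 292F0.9 (27341) and 1F57.21, and just outside it 52F0.57 (25992), 8F29.121 (25599) and 12F21.101 (25203). Per length the order was another: only 13 members were also among the 30 transcripts of highest mean RPKM, led by 47F6.12 (16179), 292F0.4 (11545) and 16F23.123 (11064), whereas the longest member, 21F12.20, had 451. With every sample scaled to the same total, 28 of the 30 would have been chosen again. Total reads per sample lay between 16894 and 408355, with a median of 45529 for the FI samples and 74506 for HU, against 262587.5 for IL and 260267.5 for GB.

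Together the 30 transcripts took 18.5% ± 3.85 (SD, n = 48) of a sample's reads, with a lowest share of 13.6%, a median of 17.4% and a highest of 29.7%. By clone, HU gave the highest mean, 24.0% ± 3.11, followed by FI with 17.6% ± 2.06, GB with 17.3% ± 0.993 and IL with 15.2% ± 1.02 (SD, n = 12 each). As a share of the summed RPKM the order of FI and GB was reversed and the clones lay closer, at 17.9% ± 2.59 in HU, 17.1% ± 1.41 in GB, 15.9% ± 1.55 in FI and 14.0% ± 1.1 in IL. On the read scale, HU samples ran from 18.2% to 29.7% and overlapped those of FI and GB, whereas no IL sample (13.6% to 16.9%) reached the lowest HU sample. Pooled over the clones, the means of the acute treatments and of the rearing conditions lay within 1 SD of each other. That SD includes the differences between clones, so it does not show how close the treatments lay within a clone. The sum was 18.1% ± 4.12 after ASH and 18.9% ± 3.61 in controls, and 19.1% ± 4.46 after CMIH and 17.9% ± 3.12 after normoxia (SD, n = 24 each).

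Within clones, FI samples after ASH gave 15.4% to 16.7% and FI controls 17.6% to 23.0%, so that the groups did not overlap. The FI means of the sum were 16.2% after ASH and 19.1% in controls. 292F0.4 alone differed by more than that, with 2.97% after ASH and 6.54% in controls. Of the 30 members, 19 had a higher mean share after ASH in FI and 11 a lower one. In IL the means were 14.5% ± 0.744 after ASH and 15.9% ± 0.736 in controls, in GB 17.4% ± 1.03 and 17.3% ± 1.05, and in HU 24.5% ± 2.41 and 23.5% ± 3.85 (SD, n = 6 each), with overlapping samples in each of these 3 clones.

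**Figure D1:**
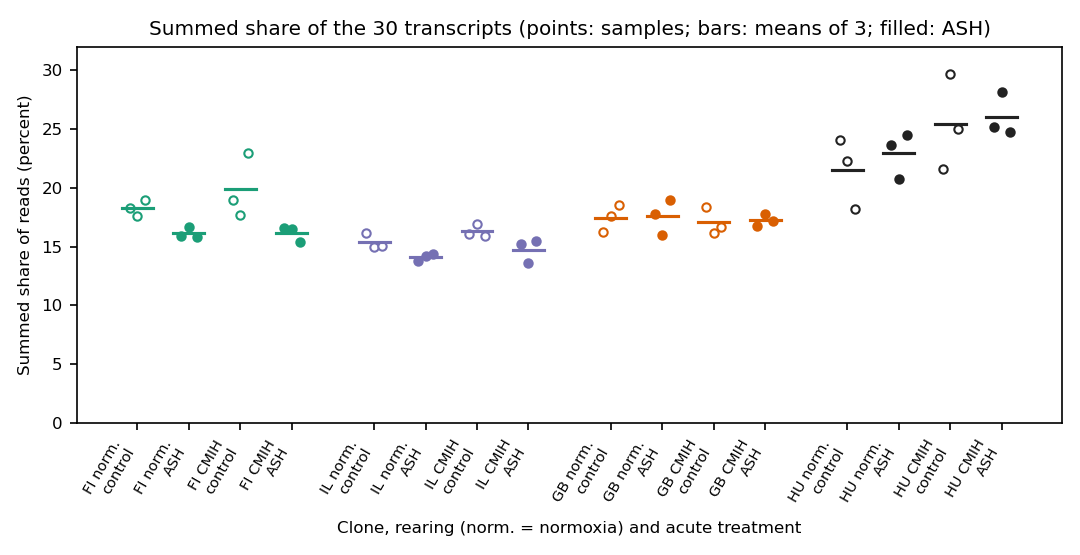
The summed share of the 30 transcripts in percent of reads (y axis) is plotted for the 3 samples of each of the 16 groups of clone, rearing and acute treatment (x axis; open points are controls, filled points ASH, bars the means of 3). The 12 HU samples lie between 18.2% and 29.7%, and the 6 FI samples after ASH (15.4% to 16.7%) lie below the 6 FI controls.

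The 5 members with the most reads differed in how their reads were spread over the clones. 292F0.4, of 3603 bases, held 2.69% of all 7917784 reads. Its lowest, median and highest share was 6.31%, 9.19% and 12.5% in HU, 2.18%, 3.43% and 10.6% in FI, 0.761%, 1.35% and 4.72% in GB, and 0.649%, 1.00% and 2.80% in IL. HU and FI overlapped only through the upper FI controls, and the mean of HU (9.02%) was 7.92 times that of IL (1.14%).

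47F6.12 (524 bases), the member of highest mean RPKM, took 1.36%, 1.70% and 2.71% in GB (lowest, median and highest), 0.709%, 0.893% and 1.15% in IL, and 0.254%, 0.640% and 1.17% in FI. The lowest GB sample thus lay above the highest sample of every other clone. This held for 1 of the 30 members and for 0.0165% of all transcripts, which is 47F6.12 itself and no other transcript. In HU the same transcript was nearly missing, with 52 reads in all 12 samples together and a highest share of 0.0107%.

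11F8.62 (5591 bases) took 0.620%, 1.26% and 1.70% in IL, 0.733%, 1.16% and 1.71% in GB, and 0.127%, 0.623% and 1.19% in FI, and had 6 reads in all of HU. 66F1.41 (1986 bases) was highest in HU, with 0.691%, 1.89% and 2.86%, and lay close together in the other clones, at medians of 0.706% in FI, 0.795% in IL and 0.621% in GB, whose samples overlapped. 5F33.118 (7145 bases) had medians of 0.932% in IL, 0.549% in FI, 0.441% in GB and 0.182% in HU, and its samples overlapped between all clones, with a highest value of 2.44% in an IL sample reared in normoxia and exposed to ASH.

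**Figure D2:**
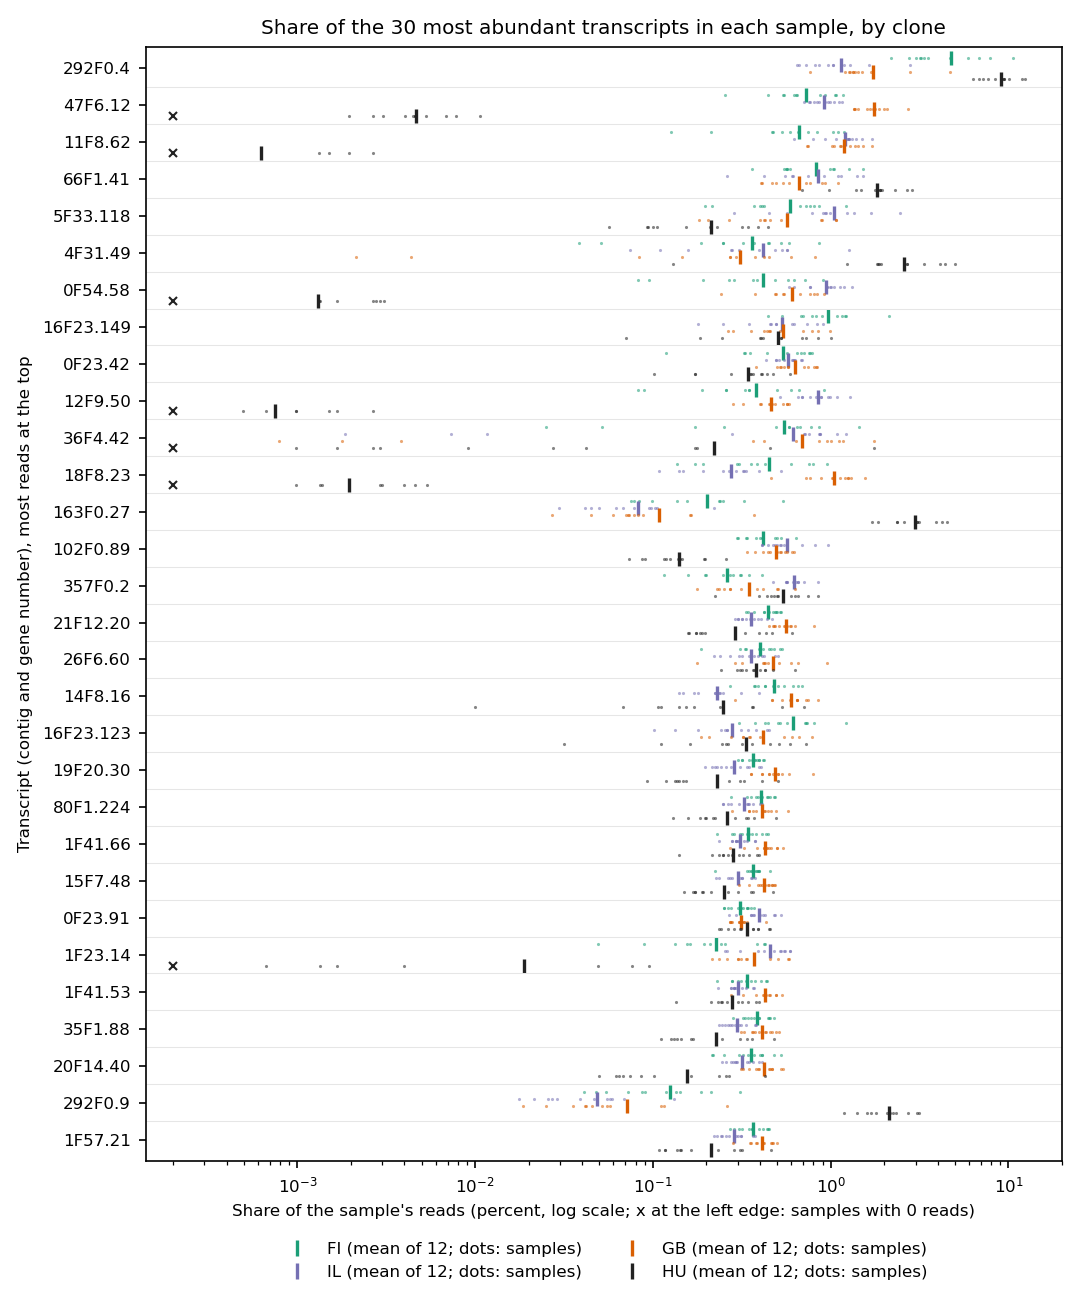
The share of reads in percent (x axis, log scale) is plotted for each of the 30 transcripts (y axis, most reads at the top) in every sample (dots) with the mean of the 12 samples of each clone (upright bars); samples with 0 reads are drawn as crosses at the left edge. 47F6.12, 11F8.62, 0F54.58, 12F9.50 and 18F8.23 lie near 0 in HU only, whereas 163F0.27 and 292F0.9 lie far above the other clones in HU.

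5 members were nearly without reads in HU and abundant in each of the other clones. 11F8.62 had 6 reads among the 1088476 of the clone, 12F9.50 (1746 bases) had 8, 0F54.58 (6150 bases) had 13, 18F8.23 (759 bases) had 24 and 47F6.12 had 52. No HU sample held more than 9 reads of any of them, and 8 of the 12 HU samples held 0 reads of 11F8.62, 5 held 0 of 0F54.58, 5 of 12F9.50, 4 of 18F8.23 and 1 of 47F6.12. In the other 36 samples the fewest reads were 15 for 12F9.50 and 105 for 47F6.12, in shallow FI libraries.

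Over the 36 samples of FI, IL and GB, the mean share of 11F8.62 was 1.02%, which was 1845 times the pooled share in HU (exact Poisson interval of the ratio 848 to 5027, for counting error of the HU reads only). The same ratio was 768 (390 to 1780) for 12F9.50, 549 (321 to 1030) for 0F54.58, 267 (180 to 417) for 18F8.23 and 236 (180 to 316) for 47F6.12. Among the clones that had them, the order differed by transcript: 11F8.62, 0F54.58 and 12F9.50 were highest in IL (1.20% ± 0.301, 0.944% ± 0.223 and 0.853% ± 0.210, SD, n = 12) and lowest in FI, whereas 18F8.23 was highest in GB (1.05% ± 0.298) and lowest in IL (0.275% ± 0.120). Summed, a set put together after its values were seen, the 5 took 5.05% ± 0.646 in GB, 4.18% ± 0.803 in IL, 2.64% ± 1.06 in FI and 0.00932% ± 0.00433 in HU.

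A sixth member, 102F0.89 (1775 bases), was lower in HU without being missing: its 12 HU samples ran from 0.0733% to 0.259%, and the lowest of the other 36 was 0.298%. With it, 6 of 30 members lay in every HU sample below every other sample, against 1.09% of all transcripts. The members have far more reads than the median transcript, and the part of depth in that difference was not tested. 1F23.14 (1639 bases) also had its lowest mean in HU (0.0189% against 0.227% in FI, 0.368% in GB and 0.453% in IL), but the HU samples overlapped FI because 3 of them carried 50 to 97 reads.

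2 members ran the other way. 163F0.27 (3228 bases) took 1.70%, 3.03% and 4.49% of reads in HU (lowest, median and highest) and at most 0.538% in any other sample. 292F0.9 (2700 bases) took 1.20%, 2.12% and 3.16% in HU and at most 0.311% elsewhere. Both lay in all 12 HU samples above all 36 others, as did 0.38% of all transcripts. Their reads in HU brought them into the 30, so this position was in part set by the choice of members, and nothing is read from that share. Their mean in HU was 35.9 and 44.1 times the mean in IL, where they were lowest (0.0829% and 0.0482%), with GB at 0.108% and 0.0717% and FI at 0.201% and 0.125%.

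4F31.49 (6383 bases) had a mean of 2.59% ± 1.42 in HU and of 0.311% to 0.418% in the other clones (SD, n = 12), but a single HU sample at 0.130% fell among theirs. The 4 members 292F0.4, 163F0.27, 292F0.9 and 4F31.49, again grouped after their values were seen, summed to 16.7% ± 3.46 of reads in HU, 5.44% ± 2.72 in FI, 2.21% ± 1.37 in GB and 1.69% ± 0.935 in IL.

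The 19 members outside these sets of 5 and 4 and other than 1F23.14 and 36F4.42 differed less between clones, with ratios of the highest to the lowest clone mean from 1.28 for 0F23.91 to 4.95 for 5F33.118 and a median of 1.94. HU was the lowest clone for 13 of them and GB the highest for 12. Of the 2442 transcripts with at least 480 reads, 987 were lowest in HU, and no such background was counted for GB. Both member counts include a correlated block and the pair 1F41.66 and 1F41.53, described below, so they are not counts of independent transcripts. 26F6.60 (1059 bases) lay at 0.357% ± 0.0913 in IL, 0.382% ± 0.101 in HU, 0.401% ± 0.0996 in FI and 0.473% ± 0.198 in GB, neighbours that did not differ beyond their spread. 357F0.2 (423 bases) was highest in IL (0.622% ± 0.0939) and lowest in FI (0.260% ± 0.0826), and its samples in those clones did not overlap. 14F8.16 (3466 bases) was highest in GB (0.600% ± 0.149) and lowest in IL (0.229% ± 0.0712), and in HU ran from 0.0100% to 0.705%, with up to a 36.5-fold range among 3 pools of 1 group. Over all 30 members the median ratio between clones was 2.67, and 8 members exceeded 10 (26.7%), against a median of 2.23 and 12.7% for the 2442 transcripts with at least 480 reads. A transcript very high in a single clone can enter the 30 through that clone. Of these 8 members this holds for 163F0.27 and 292F0.9, so the choice of members fixes that part of the difference. The others of the 8 had their lowest mean in HU.

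Did the members respond to ASH? edgeR's quasi-likelihood test with Benjamini-Hochberg adjustment over all 6050 transcripts called 0 of the 30 for the average effect of ASH over the clones and rearing conditions, where it called 0.595% of all transcripts. At an unadjusted p under 0.05 there were 2 members (5.69% of all transcripts). DESeq2 also called 0 members, and 45 of all transcripts. The member with the lowest p was 0F54.58, whose log2 fold change was 0.67 ± 0.25 (SE; adjusted p = 0.52), and 12F9.50 had 0.55. Tested together with its interactions, ASH gave 0 members in edgeR and 0 in DESeq2 (2 and 4 at an unadjusted p under 0.05). edgeR called 0.545% of all transcripts in that test, and 4.4% had an unadjusted p under 0.05. DESeq2 called 40 of all transcripts there, and its unadjusted counts over all transcripts were not made. The median log2 fold change was 0.07 over the members and 0.04 over all transcripts, and 20 of 30 members had a positive value. That count moved with the settings: 21 with TMMwsp scaling, 18 with the members left out of the totals, 16 in DESeq2 and 10 with library size alone. With at least 480 reads it was 16. Leaving out a clone gave 12 without FI, 20 without IL or GB and 19 without HU.

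Within clone FI, where edgeR called 1.4% of all transcripts, 2 of the 30 members passed, both higher after ASH, as were 1.14% of all transcripts. 12F9.50 took 0.595%, 0.913%, 0.347%, 0.664%, 0.496% and 0.331% of reads in the 6 FI samples after ASH (CMIH-reared, then normoxia-reared), and 0.258%, 0.259%, 0.0827%, 0.188%, 0.346% and 0.0888% in the 6 controls in the same order. The groups overlapped only through 1 control, and edgeR gave a log2 fold change of 1.65 ± 0.37 (SE; adjusted p = 0.0195). Its call ended without normoxia-ASH replicate 1 (adjusted p = 0.0667), normoxia-control replicate 7 (0.0696) or normoxia-control replicate 9 (0.0738).

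0F23.42 (4638 bases) took 0.762%, 0.786%, 0.751%, 0.709%, 0.649% and 0.681% in the same FI samples after ASH and 0.324%, 0.567%, 0.354%, 0.330%, 0.436% and 0.118% in the controls. Every ASH sample lay above every control, and edgeR gave a log2 fold change of 1.20 ± 0.31 (SE; adjusted p = 0.0443). This call ended when any of 8 of the 12 libraries was left out: CMIH-ASH replicate 5 (adjusted p = 0.0704) or 6 (0.0584), CMIH-control replicate 10 (0.0894) or 12 (0.0716), normoxia-ASH replicate 1 (0.112) or 3 (0.0693), and normoxia-control replicate 7 (0.0844) or 9 (0.0961).

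12 members had an unadjusted p under 0.05 in FI (40% of the members), against 13.8% of all transcripts. Those with negative values, none of which passed the adjustment, were 292F0.4 (log2 fold change -1.0, adjusted p = 0.0507), 163F0.27 (-1.16, 0.0786), 292F0.9 (-1.17, 0.0889), 66F1.41 (-0.89, 0.0966), 16F23.149 (-0.76, 0.246) and 16F23.123 (-0.69, 0.299). Those with positive values, beside the 2 called, were 0F54.58 (1.41, 0.0507), 1F23.14 (1.22, 0.0764), 11F8.62 (1.02, 0.146) and 36F4.42 (1.30, 0.17). The members have far more reads than the median transcript, and some of these 12 rose and fell together among replicates, as described below. The 12 are therefore not independent of each other. The split of called members between higher and lower differed between settings: it was 2 higher and 0 lower as reported, 3 and 0 with TMMwsp scaling, 2 and 5 with library size alone, 2 and 2 with at least 480 reads, 5 and 5 with robust dispersion, and 2 and 4 in DESeq2, which called 1.49% of all transcripts. Over all transcripts the split was 69 higher and 16 lower as reported, 113 and 14 with TMMwsp, and 39 and 29 with library size alone. It was 47 and 26 with at least 480 reads, 200 and 50 with robust dispersion, and 59 and 31 in DESeq2. The median log2 fold change of all transcripts in FI moved by -0.17 with library size alone and by 0.12 with TMMwsp. FI libraries were shallow, with 18340 to 234890 reads after ASH (median 66602) and 16894 to 100373 in controls (median 36909), and the part of depth in these values was not tested.

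In FI, 20 of the 30 members had positive edgeR estimates for ASH, at a median of 0.30 against 0.04 over all transcripts. 66F1.41 ran the other way in that clone. Its share was 0.362%, 0.565%, 0.589%, 0.546%, 0.567% and 0.563% after ASH and 1.03%, 0.992%, 1.52%, 0.823%, 1.05% and 1.27% in controls. The 2 sets did not overlap, and the mean after ASH was 0.478 times that of controls. DESeq2 called this transcript in FI (log2 fold change -1.01, adjusted p = 0.00352), and edgeR did not. With 0F23.42 it made 2 of 30 members whose FI samples after ASH and control did not overlap, against 1.67% of all transcripts.

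**Figure D3:**
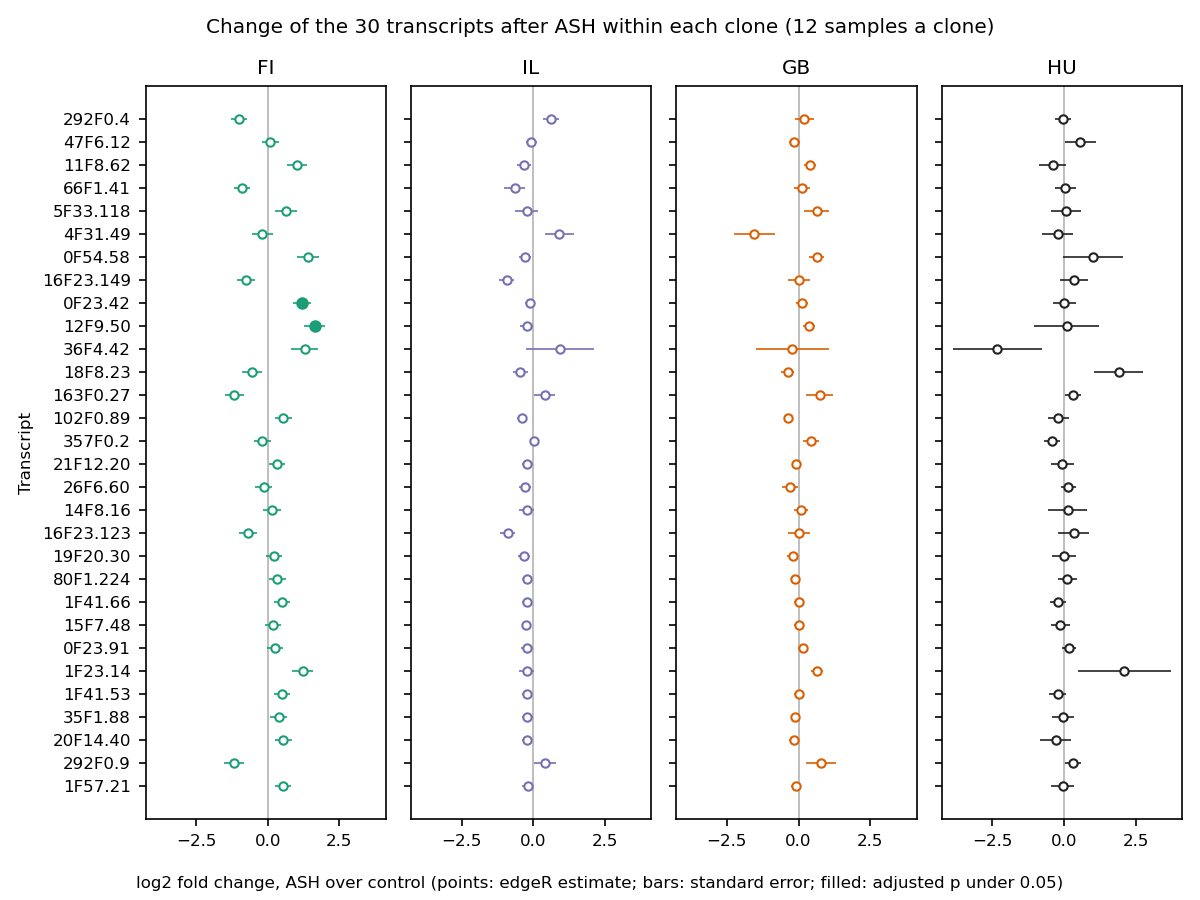
The log2 fold change of ASH over control (x axis) from the edgeR fit of each clone's 12 samples is plotted for the 30 transcripts (y axis, most reads at the top) in 4 panels, with bars of 1 standard error; filled points have an adjusted p under 0.05. Only 12F9.50 (1.65) and 0F23.42 (1.20) in FI are filled, and in IL 24 of the 30 points lie below 0.

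In the other clones no member passed for ASH. In IL edgeR called 0 of 30 (0.0826% of all transcripts), with 4 members at an unadjusted p under 0.05 (6.35% of all transcripts). DESeq2 called 0 members and 14 of all transcripts in IL. 24 of the 30 had negative values there, with a median of -0.22 against 0.00 over all transcripts. These signs are not independent of each other, since some members rose and fell together among replicates, as described below. The lowest p belonged to 16F23.149 (log2 fold change -0.93, adjusted p = 0.584), whose 6 IL samples after ASH all lay below the 6 controls, at means of 0.364% ± 0.127 and 0.701% ± 0.154 (SD, n = 6). That made 1 of 30 members without overlap in IL, against 0.479% of all transcripts.

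In GB edgeR called 0 members (0.182% of all transcripts), with 4 members at an unadjusted p under 0.05 (3.67% of all transcripts). DESeq2 called 0 members and 26 of all transcripts in GB. 102F0.89 was the only member there whose samples did not overlap (1 of 30, against 0.446% of all transcripts), at 0.421% ± 0.0567 after ASH and 0.566% ± 0.0405 in controls (SD, n = 6). In HU edgeR called 0 members (0.0496% of all transcripts), with 1 at an unadjusted p under 0.05 (3.49% of all transcripts). DESeq2 called 0 members and 5 of all transcripts in HU, and 0 members lay without overlap (0.248% of all transcripts). Without GB CMIH-ASH replicate 5, 4F31.49 passed in GB (log2 fold change -3.12, adjusted p = 0.00732).

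No member had the same sign of the ASH estimate in all 4 clones. For 12F9.50 the mean share after ASH was 2.74 times that of controls in FI (0.558% and 0.204%), 1.25 times in GB (0.512% and 0.410%) and 0.853 times in IL (0.785% and 0.921%), and in HU both were near 0. For 292F0.4 it was 0.455 times in FI (2.97% and 6.54%), 1.58 times in IL (1.39% and 0.884%), 1.15 times in GB and 0.992 times in HU. The test of a difference in the ASH response among the 4 clones called 0 of 30 members in edgeR (0.0331% of all transcripts). DESeq2 called 0 members and 22 of all transcripts. At an unadjusted p under 0.05 there were 11 members in each tool, against 8.94% of all transcripts in edgeR. In edgeR 12F9.50 had the lowest p (0.00368, adjusted p = 0.31). The members have far more reads than the median transcript, and the part of depth in the count of 11 was not tested. Some members also rose and fell together among replicates, as described below, so the members are not independent of each other. DESeq2 gave 0 members and 2 of all transcripts for a difference in the ASH response between clones from intermittent and permanent habitats. edgeR gave 0 members (0.0% of all transcripts), with 3 at an unadjusted p under 0.05 (5.72% of all transcripts). The lowest p was that of 66F1.41, with a log2 difference of -0.83 ± 0.31 (SE; adjusted p = 0.823).

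For rearing in CMIH, the average effect of CMIH gave 0 of 30 members in edgeR, where it called 0.0165% of all transcripts. DESeq2 called 0 members and 8 of all transcripts. At an unadjusted p under 0.05 edgeR gave 0 members, against 6.28% of all transcripts. With its interactions CMIH also gave 0 members in both tools, which called 0.0165% of all transcripts in edgeR and 3 transcripts in DESeq2. In edgeR 1 member had an unadjusted p under 0.05, against 4.35% of all transcripts. The median log2 fold change was 0.08 over the members and 0.03 over all transcripts. Within clones, 1F23.14 and 66F1.41 had positive estimates of the CMIH effect in all 4 and 36F4.42 negative ones in all 4, while the other 27 members had mixed signs, and none of these estimates passed the adjustment. In none of the 4 clones did CMIH-reared and normoxia-reared samples of a member fail to overlap (0 of 30 each, against 0.132% of all transcripts for FI, 0.264% for IL, 0.281% for GB and 0.149% for HU).

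Tested clone by clone, CMIH gave 0 of 30 members in FI, IL, GB and HU in edgeR, which called 0.0% of all transcripts in each, and DESeq2 called 0 in each. At an unadjusted p under 0.05 edgeR gave 2 members for FI (4.5% of all transcripts), 1 for IL (6.99%), 2 for GB (5.12%) and 0 for HU (2.78%). The ratio of the mean share after CMIH to that after normoxia ran from 0.428 (4F31.49) to 1.39 (5F33.118) in FI, from 0.623 (5F33.118) to 1.73 (292F0.9) in IL, and from 0.382 (36F4.42) to 1.43 (1F23.14) in GB. In HU, over the 24 members with a mean share above 0.02%, it ran from 0.337 (36F4.42) to 1.49 (292F0.9). 292F0.4 averaged 10.4% ± 1.44 in CMIH-reared and 7.62% ± 1.12 in normoxia-reared HU samples (SD, n = 6), with overlapping samples. The differences of the CMIH effect among clones and between habitats gave 0 members each in both tools (0.0% of all transcripts in edgeR and 0 transcripts in DESeq2). At an unadjusted p under 0.05 edgeR gave 1 member among clones (4.33% of all transcripts) and 0 between habitats (3.72%).

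4F31.49 had the lowest p of the members for a response to ASH that depended on rearing. In GB it took 0.00213%, 0.0836% and 0.00435% in the 3 CMIH-reared samples after ASH, 0.146%, 0.594% and 0.451% in CMIH-reared controls, 0.271%, 0.375% and 0.814% in normoxia-reared samples after ASH, and 0.271%, 0.294% and 0.420% in normoxia-reared controls. In FI the CMIH-reared samples after ASH, at 0.248%, 0.0383% and 0.0509%, also included the lowest of the clone. In HU the CMIH-reared samples after ASH were 0.130%, 2.68% and 1.82%. The first was the lowest of all 12, and the others lay within the range of the other HU groups. In IL the CMIH-reared samples after ASH, at 0.571%, 0.158% and 1.27%, held the highest value of the clone. Over the 48 samples the CMIHxASH coefficient was -1.87 ± 0.68 on the log2 scale (SE; unadjusted p = 0.00839, adjusted p = 1). The CMIHxASH test called 0 of 30 members in edgeR (0.0% of all transcripts), with 2 at an unadjusted p under 0.05 (2.74% of all transcripts). DESeq2 called 0 members and 1 of all transcripts. For 4F31.49 the effect of CMIH in FI (log2 fold change -1.35, adjusted p = 0.452) passed without CMIH-ASH replicate 4 (-1.94, adjusted p = 0.011), and in GB it passed without CMIH-ASH replicate 5 (-3.40, adjusted p = 0.0145).

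Replicate pools of the same group differed far more for some members than for others. The SD of log2(CPM + 1) within the 16 groups (CPM being reads scaled to a common library total, with 32 degrees of freedom) had a median of 0.597 over the members and ran from 0.269 to 3.76, where counting reads alone would give a median of 0.099. Over all transcripts the median SD was 1.5 with a counting SD of 0.718, and over the 100 transcripts next in reads it was 0.467. Samples without reads of a transcript were left out of its counting SD but kept in its SD among replicates. For transcripts missing from some samples, both SDs are therefore not fully comparable. The edgeR biological coefficient of variation, which sets counting error apart, had a median of 0.401 over the members, 0.348 over those 100 and 0.282 over all transcripts. Of the variance of log2(CPM + 1) of a member, a median of 51.6% lay between clones, 37.7% between replicates, 0.389% with acute treatment and 0.259% with rearing. A median of 7.65% lay with the remaining differences between groups, which include treatment effects that differ by clone. For the 100 transcripts next in reads, the medians were 48.6% between clones, 41.2% between replicates and 7.64% with these remaining differences.

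**Figure D4:**
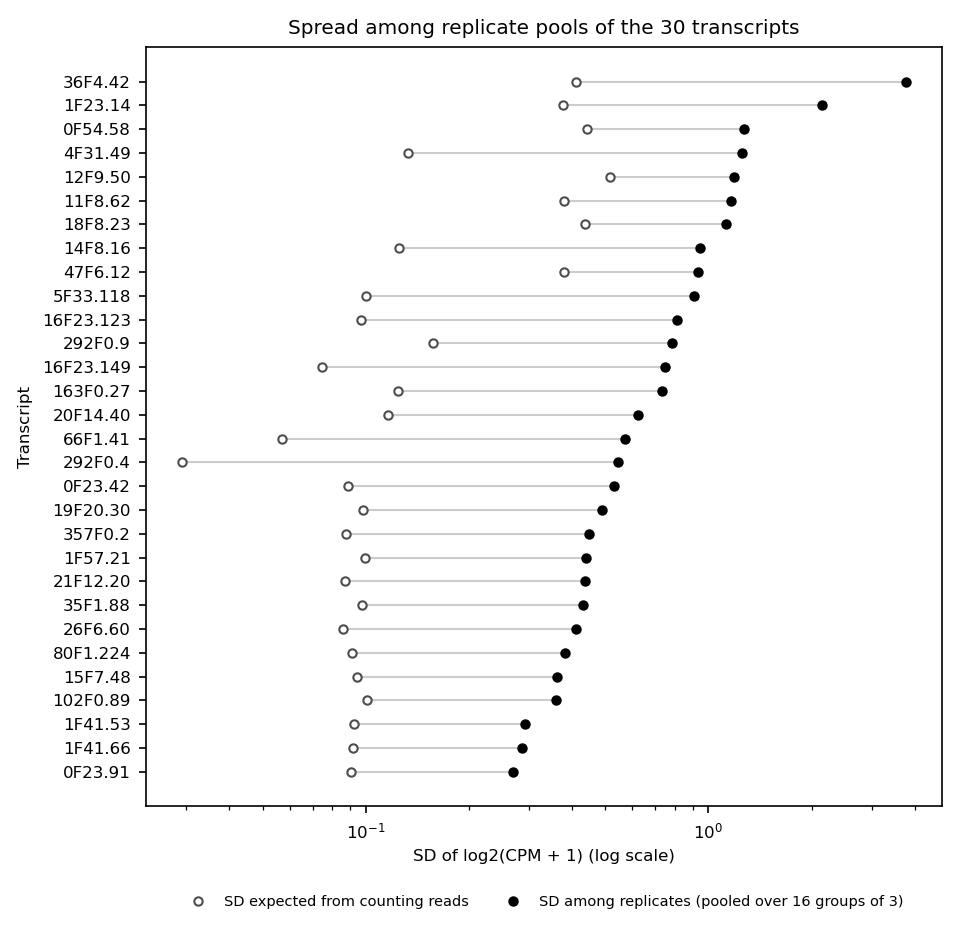
The pooled SD of log2(CPM + 1) among replicates (filled points) and the SD expected from counting reads (open points) are plotted on a log scale (x axis) for the 30 transcripts (y axis, smallest spread at the bottom). Every filled point lies to the right of its open point, from 0.269 for 0F23.91 to 3.76 for 36F4.42. Samples without reads are left out of the open points only.

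36F4.42 (2546 bases) had the largest spread, 3.76. In normoxia-reared GB after ASH its 3 pools gave 3, 3960 and 2112 reads, or 0.000786%, 1.76% and 1.01%, a 2239-fold range among pools of a single clone and treatment. In normoxia-reared HU controls they gave 0.00915%, 1.75% and 0.00167%, in CMIH-reared IL after ASH 1.22%, 0.870% and 0.00186%, and in normoxia-reared GB controls 1.11%, 1.17% and 0.953%. Over the 48 samples no share lay between 0.0518% and 0.172%, with 16 samples below and 32 above this gap, and 11 of the 16 groups had samples on both sides. Samples below the gap came from every clone (8 of 12 HU samples, 3 of IL, 3 of GB and 2 of FI), from both acute treatments (7 of 24 after ASH and 9 of 24 controls) and from both rearing conditions (10 of 24 after CMIH and 6 of 24 after normoxia). Its replicate SD was smallest in FI (1.41) and larger in IL (3.6), GB (4.38) and HU (4.75).

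1F23.14 came next at 2.14, and nearly all of this arose in HU, where the SD was 4.17 against 0.30 to 0.814 in the other clones. Its HU reads were 50, 1 and 0 in CMIH-reared samples after ASH, 97, 0 and 0 in CMIH-reared controls, 8, 55 and 1 in normoxia-reared samples after ASH, and 0, 0 and 1 in normoxia-reared controls. 0F54.58 followed at 1.27, also through HU (2.28, on 0 to 3 reads a sample), with 0.365 in IL, 0.450 in GB and 0.944 in FI. 4F31.49, at 1.26, was spread in every clone, from 0.866 in FI to 1.55 in GB.

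The most even members were 0F23.91 (1008 bases, SD 0.269), 1F41.66 (3001 bases, 0.286) and 1F41.53 (1348 bases, 0.292). 0F23.91 had 0.251% to 0.369% of reads in FI, 0.268% to 0.523% in IL, 0.271% to 0.431% in GB and 0.235% to 0.453% in HU, so that all 48 samples fell within a 2.22-fold range. 1F41.66 lay between 0.140% and 0.536%. The ratio of the highest to the lowest clone mean was 1.28 for 0F23.91, 1.52 for 1F41.66 and 1.53 for 1F41.53.

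**Figure D5:**
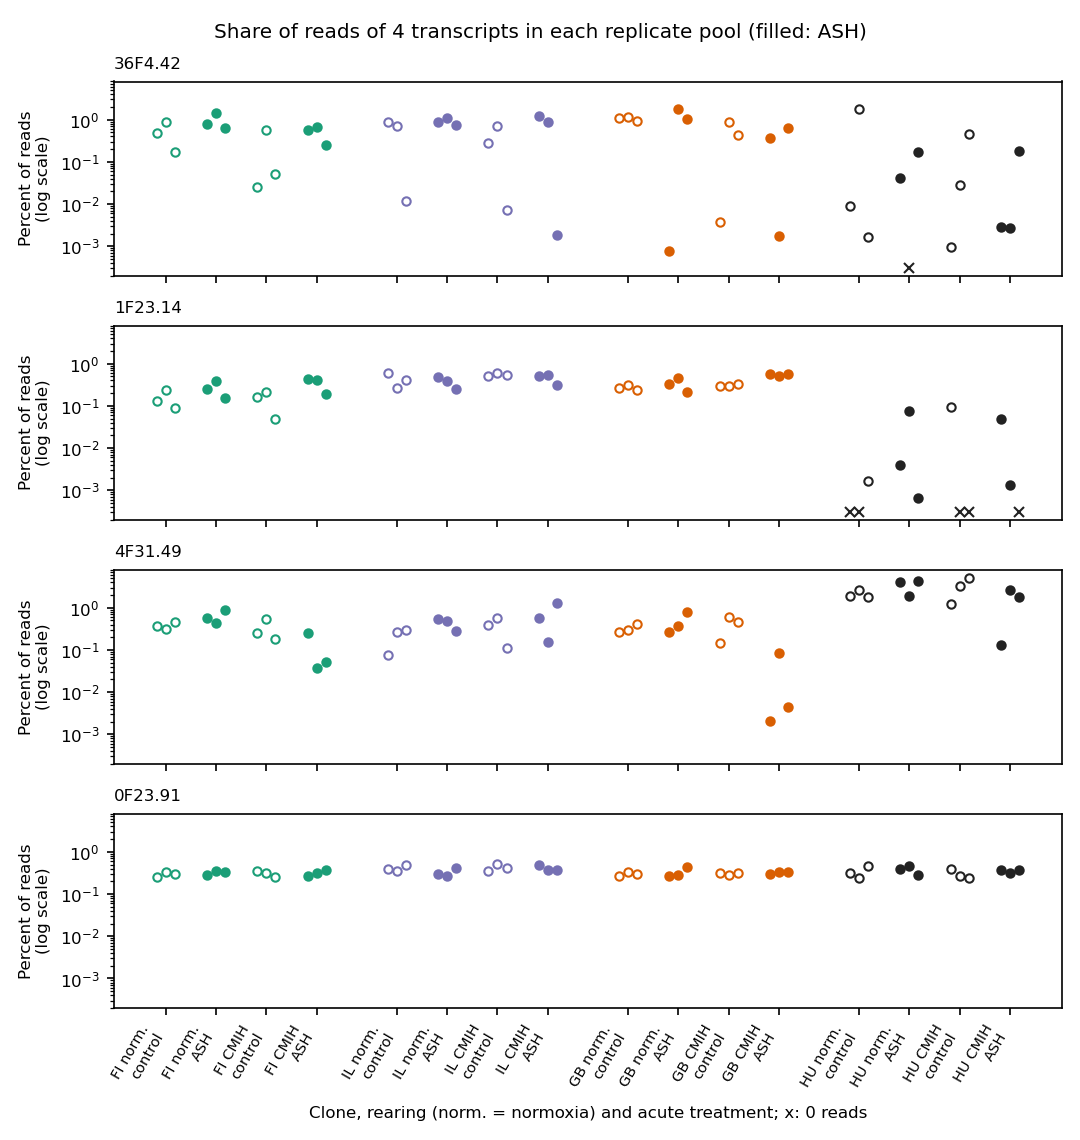
The share of reads in percent (y axis, log scale) is plotted for each of the 3 replicate pools of the 16 groups (x axis; open points are controls, filled points ASH, crosses 0 reads) for 36F4.42, 1F23.14, 4F31.49 and 0F23.91. The 36F4.42 points of 11 groups fall on both sides of an empty band between 0.0518% and 0.172%, while the 0F23.91 points stay between 0.235% and 0.523%.

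Which members rose and fell together among replicates was described by Pearson correlations of log2(CPM + 1) after subtracting the 16 group means. All members share their libraries and a fixed total, and no p is given. Over the 435 pairs the median correlation was -0.05, and 17 pairs exceeded 0.9 (n = 48 samples).

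The strongest pair, 1F41.66 and 1F41.53 (r = 0.999), had nearly the same number of reads in each sample, with a ratio between 0.993 and 1.04 and at most 25 reads of difference. A chi-square test of their counts over samples gave 0.621 on 47 degrees of freedom, less than independent counting would leave, so that these neighbouring gene models cannot be taken as separately counted, and their values stand for 1 measurement. 16F23.149 (1186 bases) and 16F23.123 (372 bases), also neighbours, had r = 0.994 with a read ratio from 1.25 to 2.21 (chi-square 565 on 47 degrees of freedom). 163F0.27 and 292F0.9, both high in HU but on different contigs, had r = 0.979 with a ratio from 1.14 to 2.15, and 163F0.27 had r = 0.72 with 292F0.4, which lies on the same contig as 292F0.9. Whether the mapping divided reads between similar sequences within these pairs was not tested, and the values of each of these members are uncertain to that extent.

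7 members moved as a block: 21F12.20, 19F20.30, 80F1.224, 15F7.48, 35F1.88, 20F14.40 and 1F57.21, with correlations between 0.828 and 0.970 (median 0.927). They lie on different contigs and range from 363 to 9147 bases. Together they took 3.12% ± 0.512 of reads in GB, 2.69% ± 0.374 in FI, 2.16% ± 0.374 in IL and 1.62% ± 0.832 in HU (SD, n = 12). The HU spread came from a few pools, with a median of 1.10% and a highest value of 3.44%. Of the 21 pairs, 14 exceeded 0.9 with all samples, 7 without HU normoxia-control replicate 6 and 1 without clone HU, where the median correlation was 0.784. The block was put together after its correlations were seen.

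36F4.42 had no close partner among the members (highest r = 0.485, with 102F0.89), but it did among all 2442 transcripts with at least 480 reads. 29 of these correlated with it above 0.9 within groups, a count made after its values were seen. 11 of the 29 lie on the same contig, which carries 54 of the 2442 transcripts (2.21%), and the closest, 36F4.51, reached r = 0.989 with 24036 reads in all.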

How the data were processed

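Whole-body RNA of 48 pools was sequenced with the Nanopore PCR-cDNA barcoding kit. The authors called bases, separated barcodes and mapped reads with Guppy 3.6 to the longest isoform of each gene of the D. magna reference transcriptome 3.0, kept transcripts with at least 72 reads, and deposited raw read counts per transcript and sample; SAMtools is named in the submitters' processing notes. The deposited RPKM values were made by the authors from those counts, divided by transcript length and library total, and their ratio to the counts gave each length. Totals therefore cover retained transcripts only, and PCR copies are counted as molecules, so that intervals cover counting error only.

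Shares, SDs and correlations were computed with Python 3.11.15, NumPy and pandas. Counts were tested with edgeR 4.0.16 (R 4.3.3, TMM, quasi-likelihood, Benjamini-Hochberg adjustment over 6050 transcripts, threshold 0.05), with clone as a block plus CMIH, ASH, their interaction and the interactions with habitat, with 1 mean per group for differences among clones, or within the 12 samples of a clone. The fits were tested on simulated data. Members and tests were chosen with earlier results of these data known. Named transcripts were the 5 with the most reads, those called in any test, the 3 with the largest and the 3 with the smallest replicate SD, and the 3 with the largest clone ratios; other members were named after their values were seen. Alternatives were another 30 by RPKM or scaled reads, pseudocounts of 0.5 and 10 CPM, TMMwsp, library size alone, DESeq2 1.42.0, totals without the members, a minimum of 480 reads, robust dispersion, and leaving out each sample or clone. Replicates are separate pools, named by barcode number, from the same tanks. The 4 treatments of a clone were combined in 3 replicate libraries, but the labels do not say which sample was in which, so no library block could be fitted, and the replicate spread and p-values include library preparation as well as the spread between pools.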

Additional observations from a re-analysis of the deposited data

How the results depend on the processing

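Of the counts of members called, those in FI after ASH moved most: 2 as reported, 3 with TMMwsp or with the members left out of the totals, 4 with at least 480 reads, 6 in DESeq2, 7 with library size alone and 10 with robust dispersion, and 0 to 6 with each sample left out. The calls over all transcripts moved too: 85 as reported, 127 with TMMwsp, 112 with the members left out of the totals and 73 with at least 480 reads. They were 90 in DESeq2, 68 with library size alone and 250 with robust dispersion, and 22 to 159 with each sample left out. Without FI CMIH-control replicate 11 the count of members was 6, without normoxia-control replicate 8 it was 5, and without normoxia-ASH replicate 1 or normoxia-control replicates 7 or 9 it was 0. 12F9.50 and 0F23.42 kept their direction in every alternative run. Without clone IL the average effect of ASH gave 1 member (12F9.50, log2 fold change 1.03). In FI, CMIH gave 1 with robust dispersion (4F31.49), and with each sample left out 0 to 1 (4F31.49 or 36F4.42, the latter without FI CMIH-control replicate 11). With each sample left out, ASH in GB gave 0 to 1 and CMIH in GB 0 to 1. All other tests kept 0 members in every alternative run. The 30 transcripts of highest mean RPKM took 14.0% of reads, against 18.5% for the 30 by reads (18.3% to 18.6% with each sample left out). Pairs correlated above 0.9 numbered 17, or 10 without clone HU, and 10 to 20 with each sample left out, lowest without HU normoxia-control replicate 6. The cause of these shifts was not tested. No paired analysis was possible because the replicate numbers in the labels are barcodes, each used once within a clone, and do not link samples of different treatments. The shallowest library, FI normoxia-control replicate 9, had 16894 reads, of which 15 fell on 12F9.50.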
